A study of Mus musculus with 6 samples.

Results

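The Hox cluster genes are the 39 protein-coding genes of the Hoxa, Hoxb, Hoxc and Hoxd series, taken by symbol and number from the 43309 genes of a count table of mouse embryonic stem cells (mESCs). They form the clusters HoxA (11 genes, chromosome 6), HoxB (10 genes, chromosome 11), HoxC (9 genes, chromosome 15) and HoxD (9 genes, chromosome 2). The table holds 6 TruSeq Stranded mRNA libraries, each made from 2 μg of total RNA of 1 line of strain J1 (129SV). The 3 control lines carry the genotype Zbtb24 wild-type (2lox/+), in the usual meaning of these names 1 allele with its loxP sites in place and 1 wild-type allele, and the other 3 lines are labelled Zbtb24 knockout (1lox/1lox), both alleles recombined. All lines were clones grown in medium with serum on gelatin, without feeder cells, and the study describes the lines of a group as biological replicates. The comparison asks which genes differ in expression between the groups.

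Hox genes encode homeodomain transcription factors that give cells of the embryo their position along the head-to-tail axis. Within each cluster the genes are numbered 1 to 13 in their order on the chromosome, genes of the same number in different clusters form a paralog group, and low numbers are used towards the head and high numbers towards the tail. In pluripotent stem cells the clusters are known to be held nearly silent by Polycomb complexes while keeping marks of both repression and activation, so low levels are the known state of these genes in this cell type.

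Every member carries the 180-base homeobox, the stretch that encodes the DNA-binding homeodomain. The stretch below runs from base 124 to base 177 of the homeobox, read 5′ to 3′ from GENCODE Release M21 transcripts, for the 4 members of paralog group 13 and for Hoxb9. Capitals mark bases that differ from Hoxd13, and the sequences are shown because Hoxb13, Hoxc13 and Hoxd13, the members called, belong to paralog group 13.
Hoxd13: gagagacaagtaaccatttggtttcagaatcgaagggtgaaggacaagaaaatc
Hoxc13: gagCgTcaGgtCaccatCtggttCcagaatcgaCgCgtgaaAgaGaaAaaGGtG
Hoxb13: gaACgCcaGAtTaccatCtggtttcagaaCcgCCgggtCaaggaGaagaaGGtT
Hoxa13: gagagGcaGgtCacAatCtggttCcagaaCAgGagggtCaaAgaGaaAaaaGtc
Hoxb9: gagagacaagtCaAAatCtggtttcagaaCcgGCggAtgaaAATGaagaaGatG
Hoxc13 and Hoxa13 differed from Hoxd13 at 14 bases each of these 54 and Hoxb13 at 15, and Hoxb9, of another paralog group, also at 14. Over the whole homeobox the 6 pairs of paralog group 13 were 67.2% to 77.2% identical, with no identical run longer than 14 bases. The median over all members was 80.6% for 42 pairs of the same paralog group and 60.6% for 699 pairs of different groups. No pair of homeoboxes had an identical run longer than 52 bases, and the reads were 76 bases long. None of the 6 members tested shared a run of 76 bases with the transcript of another gene. Of all 39 members 30 shared none, and 9 did, among them Hoxd3 with 59% of its 76-base runs and Hoxd4 with 43.8%, so fragments of Hoxd3 and Hoxd4 may have been discarded as belonging to several genes. Hoxd3, listed at 0, is therefore uncertain.

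Promoters of 22 of the 39 members were in the RefSeq table of GRCm38.p6. The stretch before the start site is printed for Hoxd13, which was counted in every library, at chr2:74667975-74668224 on the plus strand, and for Hoxa6, which had no count, at chr6:52208723-52208922 on the minus strand. Capitals mark CpG pairs, the sites of DNA methylation in mammals.
Hoxd13: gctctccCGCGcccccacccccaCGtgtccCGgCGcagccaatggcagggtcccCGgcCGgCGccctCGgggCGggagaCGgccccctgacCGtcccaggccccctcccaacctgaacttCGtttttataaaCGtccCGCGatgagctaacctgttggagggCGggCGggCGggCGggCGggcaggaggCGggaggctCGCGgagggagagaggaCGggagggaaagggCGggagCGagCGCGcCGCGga
Hoxa6: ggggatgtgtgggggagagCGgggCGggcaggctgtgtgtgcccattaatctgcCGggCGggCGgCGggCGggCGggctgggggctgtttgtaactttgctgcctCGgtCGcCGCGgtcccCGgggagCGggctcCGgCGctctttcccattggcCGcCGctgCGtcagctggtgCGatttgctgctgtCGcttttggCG
The Hoxd13 stretch held 31 CpG pairs in 250 bases and the Hoxa6 stretch 22 in 200 bases, so a counted and an uncounted member both had a CpG-rich promoter. Over 300 bases, from 250 before to 50 after the start, the 22 Hox promoters held between 4 and 45 CpG pairs with a median of 13.5, and the median of all 27025 promoters was 7. At least 15 CpG pairs were found in 45.5% of the Hox promoters and in 35.2% of all promoters, and the median GC content was 56.8% against 52.7%. The counts carry no information on methylation.

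Zbtb24, the targeted gene, was counted in 510, 512 and 489 fragments in control libraries 1 to 3 and in 888, 925 and 1039 fragments in libraries 1 to 3 labelled knockout. The counts over the whole gene thus rose in the group labelled as lacking it (log2 fold change 0.99), and the exons that gave these fragments cannot be seen in counts per gene. Directions below are therefore given for the libraries labelled knockout. The stem cell markers Pou5f1, Sox2 and Nanog were counted in at least 9816 fragments in every library. Between 25042261 and 28838924 fragments were counted per library, and 69.5% of the 16823 genes tested passed an adjusted p of 0.05 between the groups. In the group labelled knockout 34.4% of the genes tested were higher and 35.2% were lower.

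The Hox clusters were almost silent in both groups. Only 6 of the 39 members, among them Hoxa7, Hoxb9, Hoxb13, Hoxc13 and Hoxd13, reached 10 counts in at least 1 library, the minimum for a test, while 38.8% of all genes in the table did. Hoxb9 was among the 2 members with at least 10 counts in all 6 libraries. Another 31 members had between 1 and 9 counts in their highest library, and Hoxa6 and Hoxd3 had none in any. Counts of 3 or fewer in a library, 0.104 to 0.120 cpm (counts scaled to a common library size) at these depths, were taken as the floor of detection, and 19 members were at or under it in every library. All 39 members together took 188, 201 and 165 counts in the control libraries, against 146, 116 and 147 in those labelled knockout, 0.000678% and 0.000509% of all fragments counted.

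**Figure D1:**
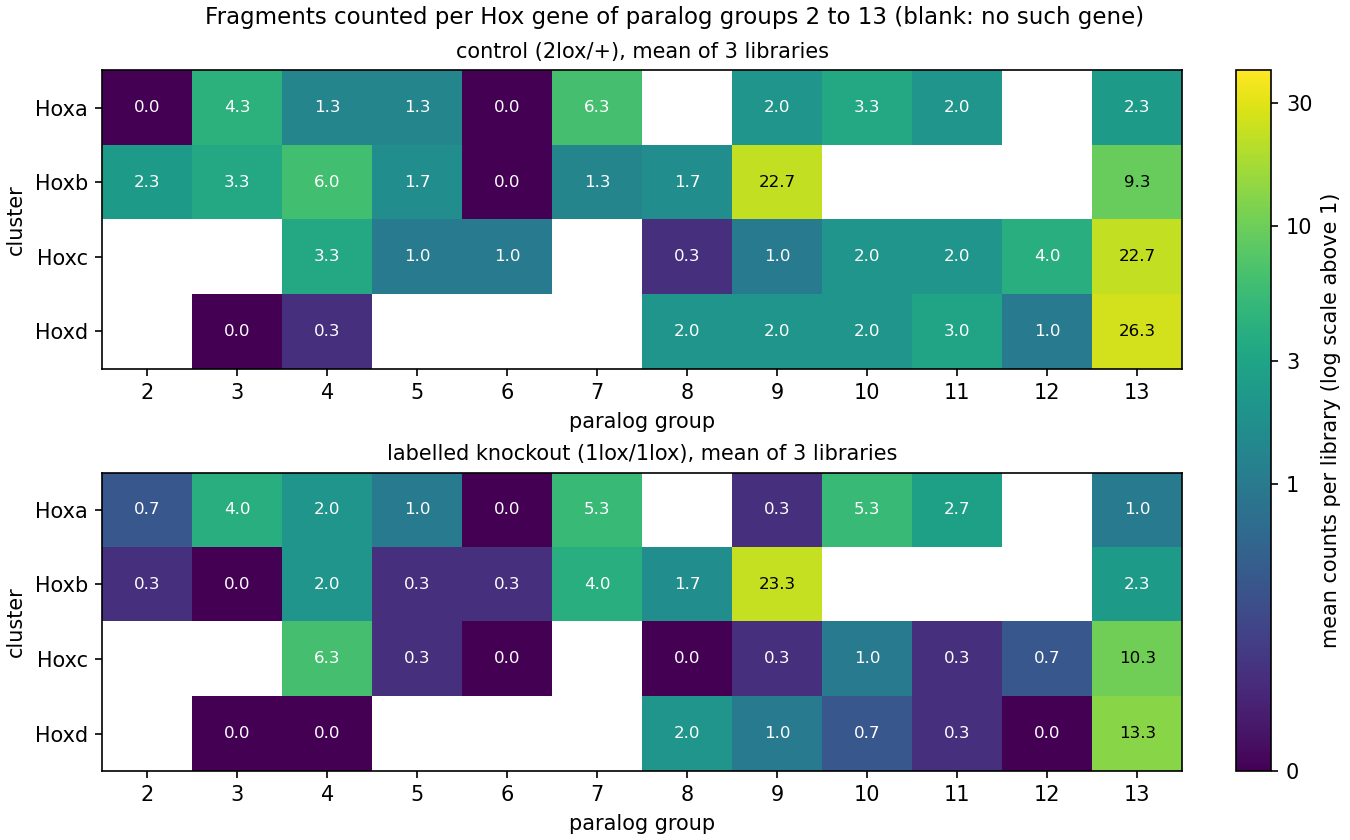
Mean counts per library of each Hox gene of paralog groups 2 to 13, by cluster (rows) and paralog group (columns), in the control libraries (upper panel) and the libraries labelled knockout (lower panel), each the mean of 3 libraries. Colour is on a log scale above 1, blank cells are numbers that a cluster lacks, and the brightest cells are Hoxb9, Hoxc13 and Hoxd13.

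Paralog group 13, the last genes of each cluster and those used at the tail and the limb ends, held 3 of the 6 members tested. Hoxc13 and Hoxd13 fell in the libraries labelled knockout. Hoxb13 was called lower too, but it entered the test only through 1 control library. Such an entry favours that direction, so Hoxb13 is not counted as support. No member rose. Of the 4 members that reached 10 counts in both groups 2 were lower, beside 24.7% of the 2933 genes of that kind with a mean under 50 counts and 35.2% of all genes tested. Of the 4463 genes tested with a mean under 50 counts, as all these members have, 50.5% were called in either direction. The like count is 3 of the 6 members tested, Hoxb13 included. By that comparison the share of Hox genes called was near that of other genes of such low counts. With so few members, no excess of calls is read from either comparison.

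Hoxd13, which is needed for the formation of digits, was counted in 25, 27 and 27 fragments in control libraries 1 to 3 and in 15, 9 and 16 in libraries 1 to 3 labelled knockout. Every control library was higher than every library labelled knockout. The log2 fold change was -0.90 (standard error 0.28, 95% interval -1.46 to -0.34, adjusted p = 0.0037 by edgeR's quasi-likelihood F-test, Benjamini-Hochberg adjusted over all genes tested). The gene (ENSMUSG00000001819) is the first of its cluster on the plus strand of chromosome 2 in mm10, from 74668310 to 74671599. In a bulk library, a smaller share of cells with a transcript and fewer transcripts per cell cannot be told apart, and this holds for every Hox gene here.

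Hoxc13, known for its role in hair and nail, was counted in 23, 23 and 22 fragments in the control libraries, against 8, 7 and 16 in those labelled knockout. The control libraries were within 1 count of each other and all were higher than the other 3, among which library 3 stood at 16. The log2 fold change was -1.05 (standard error 0.31, 95% interval -1.69 to -0.42, adjusted p = 0.00291, same test). The gene (ENSMUSG00000001655) lies on the plus strand of chromosome 15 from 102921103 to 102928814.

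Hoxb13, expressed late in the tail bud and in the adult prostate, was counted in 11, 8 and 9 fragments in the control libraries, against 3, 1 and 3 in those labelled knockout. The groups did not overlap, but the second group was at or under the floor in every library, and the gene entered the test only through the 11 counts of control library 1. Entry through 1 group only favours genes that are higher in that group, though it does not force a call. Hoxa7 also entered only through 1 control library, with 10 counts, and was not called. Without control library 1 Hoxb13 was not tested. The log2 fold change was -1.87 (standard error 0.58, 95% interval -3.04 to -0.71, adjusted p = 0.0039, same test). This value rests on 7 counts in the libraries labelled knockout. The summed counts of 28 and 7, scaled for library size, gave a ratio of 3.80, with an exact 95% interval for counting error alone of 1.62 to 10.3. The gene (ENSMUSG00000049604) lies on the plus strand of chromosome 11 from 96194316 to 96197447, apart from the rest of HoxB.

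Hoxa13, the remaining member of paralog group 13, had 4, 1 and 2 counts in the control libraries, against 1, 0 and 2 in those labelled knockout. These counts were too low for a test and the groups overlapped. Paralog group 13 as a whole had 63, 59 and 60 counts in the control libraries, against 27, 17 and 37 in those labelled knockout, and the groups did not overlap. Nearly all of these counts came from Hoxb13, Hoxc13 and Hoxd13, so the sum restates their values and adds no further result.

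**Figure D2:**
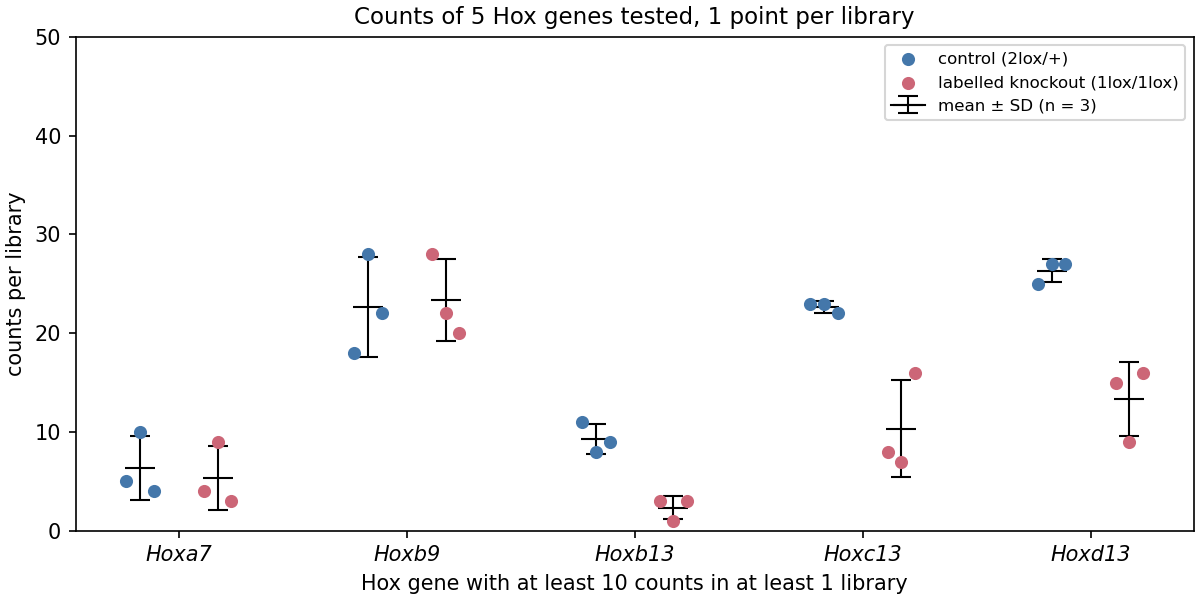
Counts per library (vertical axis) of 5 Hox genes tested, with points for the 3 libraries of each group and bars for the mean ± SD (n = 3). Points of the groups are apart for Hoxb13, Hoxc13 and Hoxd13 and mixed for Hoxa7 and Hoxb9.

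Hoxb9, which takes part in patterning the thorax, was counted in 18, 28 and 22 fragments in the control libraries, against 28, 22 and 20 in those labelled knockout. The groups overlapped, and the log2 fold change was 0.11 (standard error 0.26, 95% interval -0.40 to 0.63, adjusted p = 0.705, same test). Hoxa7, a gene of the middle of HoxA, had 5, 10 and 4 counts in the control libraries, against 4, 9 and 3 in those labelled knockout, with a log2 fold change of -0.17 (95% interval -1.28 to 0.94, adjusted p = 0.796, same test). Hoxb13, Hoxc13 and Hoxd13 were among the 4 of 6 members whose TMM-scaled cpm did not overlap between groups, beside 71.5% of all genes tested. The interval of Hoxa7 holds changes as large as that of Hoxd13 in either direction, so a change of that size is within its error.

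**Figure D3:**
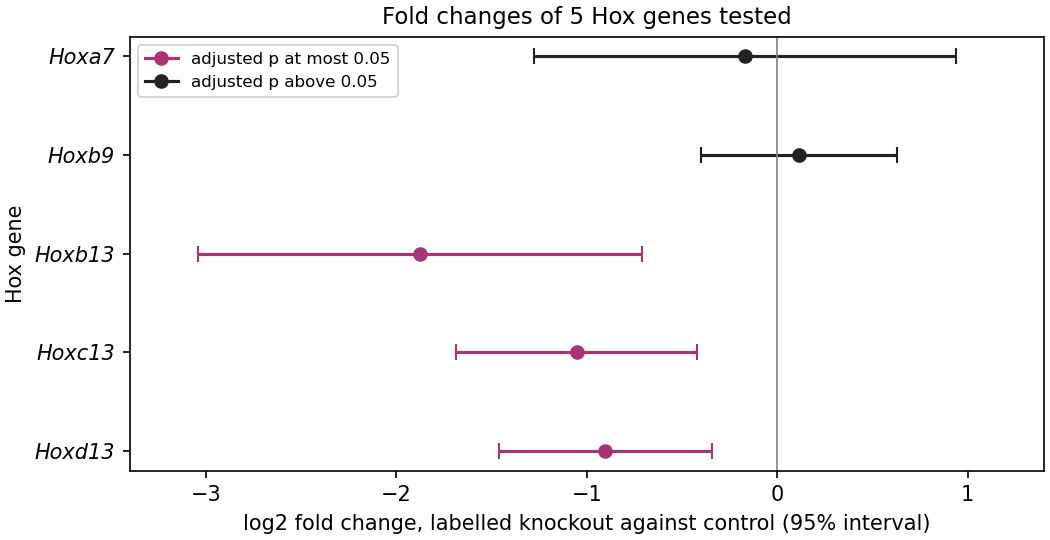
Log2 fold change (horizontal axis) of the libraries labelled knockout against the control libraries for 5 Hox genes tested, with 95% intervals from edgeR's quasi-likelihood test. The intervals of Hoxb13, Hoxc13 and Hoxd13 lie below 0, and those of Hoxa7 and Hoxb9 include 0.

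Levels of different genes were compared per kilobase of exon, in cpm per kb scaled by TMM, a correction for composition. In the control libraries, the order of 5 members tested was Hoxd13 at 0.383 ± 0.022, Hoxc13 at 0.333 ± 0.0073, Hoxb9 at 0.319 ± 0.074, Hoxb13 at 0.153 ± 0.023 and Hoxa7 at 0.0797 ± 0.041 (SD, n = 3 each). Of the neighbours in this order, Hoxc13 and Hoxb9 did not differ beyond their spread. At such low counts an SD of 3 libraries can fall below counting error. The order of Hoxd13 and Hoxc13 is therefore not read as a difference. In the libraries labelled knockout the order of levels was Hoxb9 at 0.346 ± 0.071, Hoxd13 at 0.202 ± 0.048, Hoxc13 at 0.157 ± 0.064, Hoxa7 at 0.0724 ± 0.048 and Hoxb13 at 0.0396 ± 0.018 (SD, n = 3 each). There Hoxd13 and Hoxc13 overlapped, and so did Hoxa7 with the genes on either side of it. Hoxb9 thus stood below Hoxd13 and Hoxc13 in mean level in the control libraries, where its range overlapped both, and above both without overlap in the other libraries. For scale, the pluripotency factor Pou5f1 had 509.9 ± 10.8 in the control libraries, against 585 ± 7.06 in those labelled knockout (SD, n = 3 each).

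Among the 33 members without enough counts for a test, the summed counts were 69, 72 and 55 in the control libraries, against 47, 35 and 46 in those labelled knockout, and the groups did not overlap. The mean of scaled values was lower in the libraries labelled knockout for 22 of the 31 such members with any count (71.0%), beside 54.8% of the 9120 genes that had counts but fewer than 10 in every library. Over all 37 members with a count it was lower for 26 (70.3%), beside 51.7% of 25943 genes. These shares are descriptions, since genes of a cluster are not independent of each other.

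In HoxA the untested members had between 0 and 8 counts per library. Hoxa3 had 3, 8 and 2 counts in the control libraries, against 3, 3 and 6 in those labelled knockout, and Hoxa10 had 5, 2 and 3 against 4, 4 and 8. Hoxa2 had 2 counts in 1 library labelled knockout and none elsewhere. Hoxa4, Hoxa5, Hoxa9 and Hoxa11 had between 0 and 3 counts per library. The groups overlapped for every untested HoxA gene.

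In HoxB, Hoxb3 had 2, 4 and 4 counts in the control libraries and 0 in all 3 libraries labelled knockout. Hoxb2 had 4, 2 and 1 against 0, 0 and 1, and Hoxb4 had 6, 4 and 8 against 4, 1 and 1. Hoxb1, a marker of the hindbrain with an early response to retinoic acid, had 3, 8 and 3 against 2, 3 and 1. Hoxb7 had 2, 0 and 2 against 8, 3 and 1, and Hoxb5, Hoxb6 and Hoxb8 had between 0 and 4 per library. Hoxb3 and Hoxb2 did not overlap in scaled values, and the other untested HoxB genes did.

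In HoxC, Hoxc12 had 2, 6 and 4 counts in the control libraries, against 1, 1 and 0 in those labelled knockout, and Hoxc11 had 2, 2 and 2 against 0, 1 and 0. Hoxc4 had 3, 5 and 2 against 3, 9 and 7, and Hoxc5, Hoxc6, Hoxc8, Hoxc9 and Hoxc10 had between 0 and 3 per library. Hoxc4 was the untested member with the most counts, and the scaled values of Hoxc11 and Hoxc12 did not overlap between groups.

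In HoxD, Hoxd11 had 3, 2 and 4 counts in the control libraries, against 1, 0 and 0 in those labelled knockout, without overlap. Hoxd12 had 3, 0 and 0 against no count, and Hoxd1 had 3, 4 and 1 against 1, 2 and 3. Hoxd4, Hoxd8, Hoxd9 and Hoxd10 had between 0 and 5 counts per library. Hoxb2, Hoxb3, Hoxc11, Hoxc12 and Hoxd11 were the 5 untested members whose groups did not overlap, all with the higher values in the control group, and most of these counts were at or under the floor. Among the 9120 genes with counts but fewer than 10 in every library, 8.3% had all control libraries above all libraries labelled knockout. Hoxb2 had 1 count in a library of each group, and its groups were apart only after scaling.

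When the test was run without the filter on low counts, Hoxb3 (adjusted p = 0.00497 by edgeR's quasi-likelihood F-test, Benjamini-Hochberg adjusted) and Hoxc12 (adjusted p = 0.0408) were called lower as well. That made 5 of 37 members called, beside 46.5% of the 25943 genes in that test. No fold is given for these 2 genes, which had at most 1 count in any library labelled knockout.

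By cluster, HoxC and HoxD were lower in the libraries labelled knockout without overlap, and HoxA and HoxB overlapped. HoxD summed to 40, 39 and 39 counts in the control libraries, against 20, 14 and 24 in those labelled knockout, or 1.42 ± 0.0011 and 0.728 ± 0.14 TMM-scaled cpm (SD, n = 3 each). The control SD of HoxD is below the counting error of such sums, so it does not give the precision of that level. HoxC summed to 38, 42 and 32 counts against 14, 19 and 25, or 1.35 ± 0.18 against 0.731 ± 0.18 (SD, n = 3 each). These sums were largely those of 1 gene each, since Hoxd13 gave 67.6% of the HoxD counts and Hoxc13 gave 58.2% of the HoxC counts. Without those genes the difference of the summed level was -0.243 cpm for HoxD and -0.184 for HoxC, and the groups then overlapped for HoxC.

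HoxA summed to 59, 64 and 42 counts in the control libraries, against 62, 53 and 69 in those labelled knockout. HoxB, of which Hoxb9 gave 51.5%, summed to 51, 56 and 52 against 50, 30 and 29. Both pairs of groups overlapped, and library 1 labelled knockout was the one that kept HoxB at the control level.

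**Figure D4:**
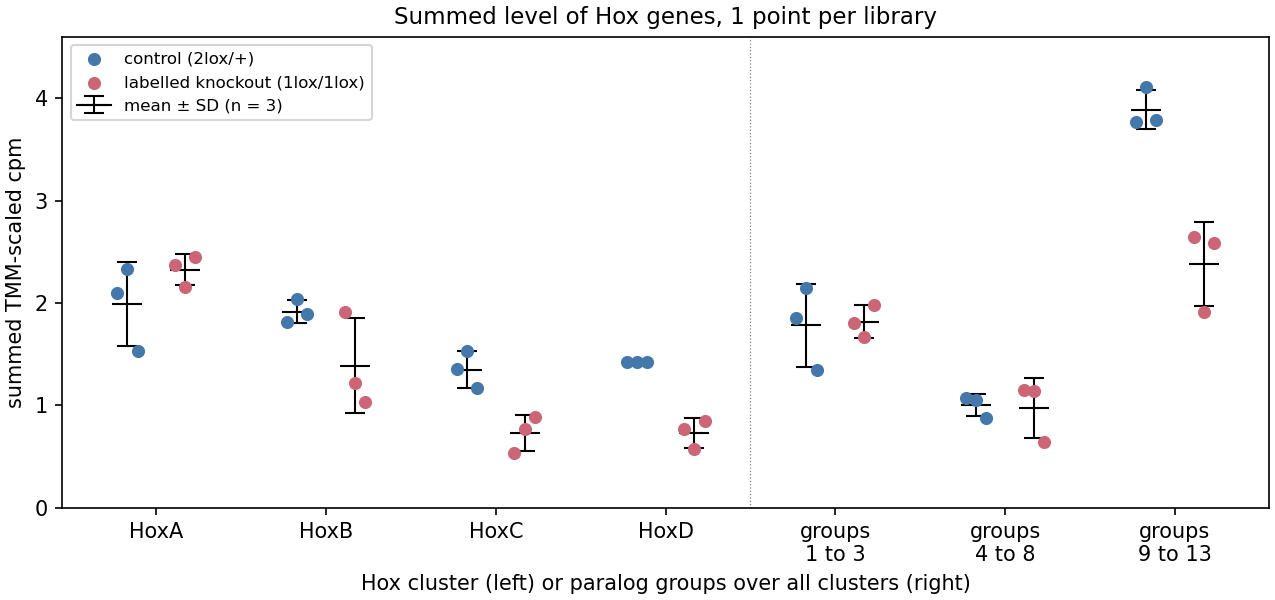
Summed TMM-scaled cpm (vertical axis) of the members of each cluster and of each range of paralog groups, with points for the 3 libraries of each group and bars for the mean ± SD (n = 3). The groups lie apart for HoxC, HoxD and paralog groups 9 to 13, and overlap for HoxA, HoxB and paralog groups 1 to 3 and 4 to 8.

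By position in the clusters, the sums of the posterior genes did not overlap between the groups. Paralog groups 9 to 13 summed to 106, 113 and 104 counts in the control libraries, against 69, 47 and 73 in those labelled knockout, or 3.89 ± 0.19 and 2.38 ± 0.41 cpm (SD, n = 3 each). Paralog groups 1 to 3 summed to 1.78 ± 0.40 and 1.82 ± 0.16, and paralog groups 4 to 8 to 0.999 ± 0.11 and 0.975 ± 0.29 (SD, n = 3 each), with overlap in both. Differences between these ranges were not tested, and the 4 genes of paralog group 13 gave 182 of the 323 counts of groups 9 to 13 in the control libraries and 81 of 189 in the others. Without paralog group 13, groups 9 to 12 summed to 43, 54 and 44 counts against 42, 30 and 36, and the groups overlapped in scaled values.

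Some markers of other cell types differed between the groups as well. Of 11 fibroblast markers, 9 were tested, but 4 of them (Col3a1, Postn, Dcn and Twist2) reached 10 counts only in the control group. Of the 5 that did so in both groups, Col1a1, Col1a2 and Thy1 were lower in the libraries labelled knockout and Twist1 and Pdgfra did not pass the test, with a median log2 fold change of -0.76 against -0.00036 over all genes tested. Col1a1, a fibrillar collagen chain, was counted in 1095, 1126 and 1188 fragments in the control libraries, against 92, 110 and 107 in those labelled knockout. The summed level of the 11 markers was 59.1 to 62.7 cpm in the control libraries and 12 to 13 in the others, and Lum was at 0 in all. The part of these markers in the Hox values was not tested. The 10 mesoderm markers did not separate the groups in sum, with 14.2 to 14.6 cpm in the control libraries and 14.2 to 15.3 in the others, and 2 of the 8 tested were higher and 1 was lower.

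Complexes that keep Hox clusters silent or active were expressed in all libraries. Genes of this and the following lists are called higher or lower by the same test as the Hox genes. Of 23 Polycomb genes, all tested, 9 rose and 6 fell in the group labelled knockout, beside 34.4% and 35.2% of all genes tested, and the median log2 fold change was -0.02. These counts are near the background of 69.5% called. The summed level of the 23 genes was 3882 to 3959 cpm in the control libraries and higher, at 4213 to 4276, in those labelled knockout. Among the largest changes of single genes were falls of subunits of the repressive complexes. Bmi1 was counted in 278, 276 and 254 fragments against 100, 99 and 101 and Phf19 in 558, 576 and 508 against 226, 200 and 235. Their log2 fold changes were -1.35 and -1.24 (standard errors 0.09 and 0.07).

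Of 10 Trithorax and H3K27 demethylase genes, which favour Hox transcription, 4 were higher and 4 were lower, with a median log2 fold change of -0.03, beside the same background. Rbbp5, a core subunit of the H3K4 methyltransferase complexes, was higher (log2 fold change 1.18), as was the H3K27 demethylase Kdm6b (0.84), while the core subunit Ash2l was lower (-0.57). Of the 9 TALE genes, whose proteins bind DNA together with Hox proteins, 2 were higher and 4 were lower with a median of -0.12, again beside 69.5% called over all genes tested. Meis1 and Meis3 were lower (-0.71 and -0.64), and Pbx4 was higher (0.29).

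Of 19 caudal and retinoic acid genes, which act upstream of Hox genes in the embryo, 16 were tested, and 4 were higher and 10 were lower with a median log2 fold change of -0.33, beside 34.4% higher and 35.2% lower over all genes tested. Of the 15 that reached 10 counts in both groups, 3 were higher and 10 were lower, with a median of -0.51. The retinoic acid binding protein genes moved in opposite directions. Crabp2 was counted in 229, 262 and 261 fragments in the control libraries, against 99, 81 and 100 in those labelled knockout (log2 fold change -1.35), and Crabp1 in 317, 354 and 340 against 542, 494 and 557 (0.73). Rdh10, which makes retinal from retinol, was lower (-0.54).

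The caudal genes, chosen here after their values were seen because they are direct regulators of Hox genes, also moved in opposite directions. Cdx1 was counted in 8, 12 and 11 fragments in the control libraries, against 44, 29 and 28 in those labelled knockout (log2 fold change 1.77, standard error 0.29). Cdx4 was counted in 19, 19 and 21 against 10, 6 and 7 (-1.27, standard error 0.35), and Cdx2 in 20, 15 and 18 against 2, 11 and 11 (-1.06, standard error 0.38). Cyp26a1, which breaks down retinoic acid and was chosen in the same way, was counted in 72, 73 and 98 against 10, 7 and 12 (-2.98, standard error 0.23).

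The Evx genes lie beside the posterior end of HoxA and HoxD and are homeobox genes too. Of 5 Evx and ParaHox genes, 2 were tested and 1, Evx1, was lower, with 28, 30 and 42 counts in the control libraries, against 11, 13 and 13 in those labelled knockout (log2 fold change -1.35, standard error 0.27). Evx1 lies 52.6 kb from HoxA on the side of Hoxa13. Evx2, 8.75 kb from HoxD on the side of Hoxd13, was at 0 in every library, and Gsx1 had 14, 14 and 12 against 10, 18 and 22 and did not pass the test.

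Of the 53 other protein-coding genes within 500 kb of a cluster, 44 were tested, and 12 were higher and 16 were lower, 28 calls beside the background of 69.5%, with a median log2 fold change of -0.04. At HoxC 4 of 21 tested were higher and 7 lower, and the 3 largest changes, all falls, were of genes 417 to 493 kb beyond Hoxc4. Nckap1l, a regulator of actin in blood cells, was counted in 461, 447 and 420 fragments against 104, 122 and 131 (log2 fold change -1.82), Pde1b fell by 1.04 on the log2 scale and Ppp1r1a fell by 0.94. At HoxB 3 of 17 tested were higher and 8 lower.

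At HoxD both genes tested, Lnpk 88.9 kb before and Mtx2 60.7 kb after the cluster, were higher (log2 fold changes 0.23 and 0.43), against the direction of Hoxd13 between them. At HoxA, Skap2, Hibadh and Tax1bp1 were higher (0.48, 0.36 and 0.16) and Evx1 alone was lower. These genes were named after their values were seen, since few genes flank these clusters.

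**Figure D5:**
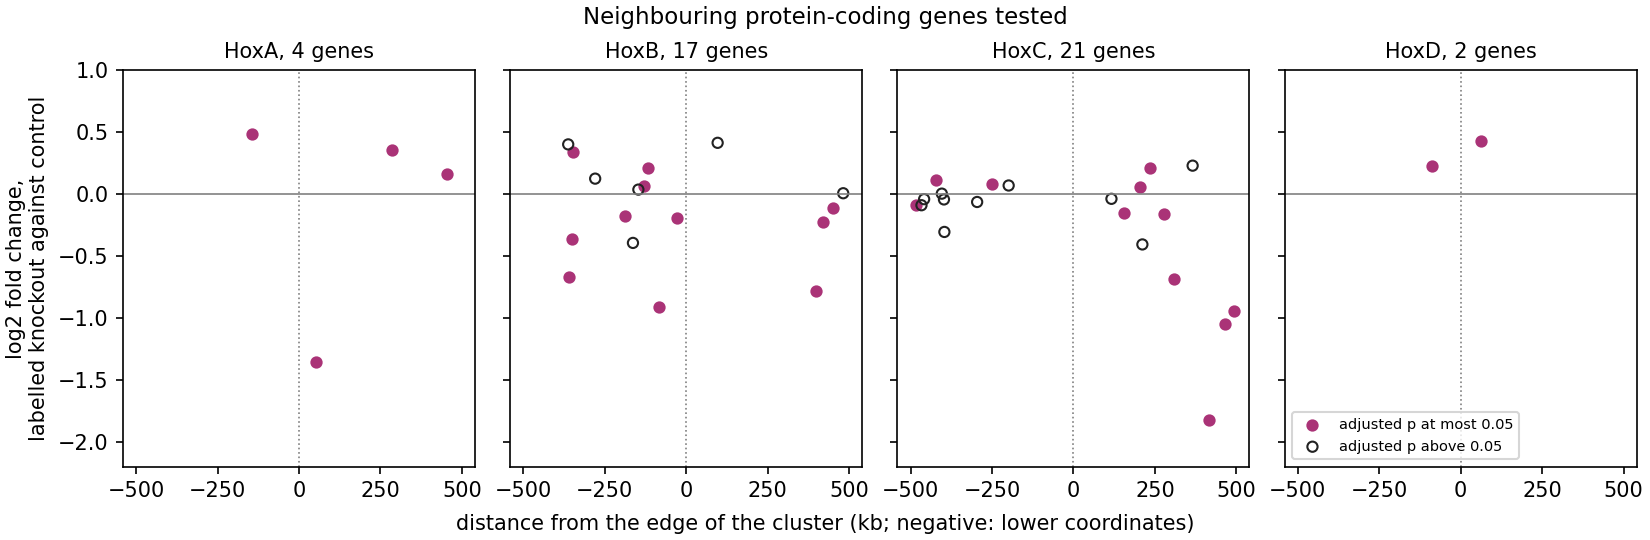
Log2 fold change (vertical axis) of the libraries labelled knockout against the control libraries for the tested genes near each cluster, by distance from the edge of the cluster in kb (horizontal axis). Both HoxD neighbours lie above 0, and Nckap1l, with -1.82, lies farthest below 0.

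Transcripts without a protein product inside the clusters or within 20 kb of them were mostly silent too. Of 48 such genes 29 were at 0 in every library and 4 were tested, of which 1 was called. This was Gm53. Gm53, a lincRNA gene between Hoxb13 and Hoxb9 on the plus strand of chromosome 11 from 96251105 to 96264868, was counted in 121, 119 and 99 fragments in the control libraries, against 184, 210 and 221 in those labelled knockout. Every library labelled knockout was higher than every control library, with a log2 fold change of 0.93 (standard error 0.10). Hoxb9, on one side of Gm53, did not pass the test. The direction of Hoxb13, on the other side, is not read as a result, given how that gene entered the test. Gm53 had more counts than any Hox gene. Hotairm1, a noncoding RNA gene of HoxA, had 4, 14 and 5 against 4, 6 and 5 and did not pass the test, with fragments counted by strand.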

How the data were processed

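The deposited table gives counts per gene for 6 TruSeq Stranded mRNA libraries amplified with 8 PCR cycles, 3 per group, grouped by their titles and genotype labels. The study describes the lines as biological replicates, and p-values measure the spread between the libraries of a group. That spread was small, with a common coefficient of variation of 2.0%. Whether it holds the full variation between independent lines was not tested, so the share of genes called depends on it. According to the submitters' processing notes, CASAVA 1.8.2, Bowtie2 2.1.0, TopHat2 2.0.10 and HTSeq 0.6.1 were used with mm10. The authors removed rRNA reads, mapped the rest and counted sense fragments of GENCODE M4 genes, discarding fragments of several genes or locations, which under-counts near-identical genes. The counts were deposited raw. Symbols and positions came from GENCODE M21 (42425 of 43309 genes matched).

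Library totals were 25042261 to 28838924 counts. Without molecular identifiers, floors and intervals from counts cover counting error only. Genes that reached 10 counts in 1 library or more were tested in R 4.3.3 with edgeR 4.0.16 (TMM, glmQLFit, glmQLFTest, Benjamini-Hochberg adjusted p at most 0.05). DESeq2 1.42.0, the likelihood ratio test, other scalings, filters and thresholds, a replicate block and leaving out each library were alternatives. Pairs of libraries within a group differed by 1.12 to 1.60 times sampling noise for the median gene and pairs between groups by 18.9 to 20.2 times.

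The members and gene lists were chosen with earlier results of these data known. Named were Zbtb24, Hox genes that were called or had a mean of 10 counts or more, Pou5f1, Sox2 and Nanog, and up to 3 genes per other list, those with the largest fold change among called genes whose mean was 50 counts or more. Evx1, Evx2, Gsx1, the Cdx genes, Cyp26a1, Col3a1, Postn, Dcn, Twist1, Twist2, Pdgfra, Lum, Hotairm1, the HoxA and HoxD neighbours, and the Hox genes with values but without a test or call were named after their values were seen. Some items that meet this rule are not reported here. The other libraries of the series were not analysed here.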

Additional observations from a re-analysis of the deposited data

How the results depend on the processing

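No Hox gene was called higher in any of 15 alternatives, DESeq2 included, and at an unadjusted p of 0.05 none was higher either. The count called lower was 2 without control replicate 1 or with 10 counts required in at least 3 libraries, where Hoxb13 was not tested, 2 with a minimum absolute log2 fold change of 1, which Hoxd13 did not reach, 5 with no filter on low counts, and 3 in the others planned. It was also 2 when 10 counts were required in a library of each group, a setting chosen after the data were seen. By adjusted p alone, Hoxc13 passed in all 13 alternatives that gave it a fold change, with log2 fold changes of -1.45 to -0.88 (highest adjusted p = 0.0236 over edgeR and DESeq2), and Hoxd13 with -1.0 to -0.73 (highest adjusted p = 0.0315, same tools). Hoxb13 is left out of this reading, since it is tested only where its control counts admit it. With a minimum absolute log2 fold change of 1, calls numbered 2865 over all genes, 0 for TALE, 3 for Polycomb, 1 for Trithorax and 8 for caudal and retinoic acid genes. DESeq2 called 3 TALE genes, and 10 neighbours were called within 200 kb, where fewer genes were tested. The uncalled fold changes of Hoxa7 and Hoxb9 changed sign, and with single libraries left out ranged from -0.81 to 0.16 for Hoxa7 (positive without knockout replicate 3) and from -0.0415 to 0.30 for Hoxb9 (negative without control replicate 1 or knockout replicate 1). The members counted were 37 with a minimum of 1 count in a library and 2 with at least 10 counts in every library. Leaving out the gene with the most counts moved the difference of summed levels to -0.184 cpm for HoxC and -0.243 for HoxD. The replicate numbers were not taken as pairs, since the labels give no shared origin and deviations of same-numbered libraries correlated with r of 0.0136, 0.0744 and 0.0151 over 12360 genes. With the replicate number as a block, 3 Hox genes were still called lower, with log2 fold changes of -1.88 for Hoxb13, -1.06 for Hoxc13 and -0.91 for Hoxd13. At these depths 33 of 39 members were too low for a test.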

Other observations

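Markers of the stem cell state and of other lineages also differed between the groups. Of 12 pluripotency markers 10 were higher and 2 were lower in the libraries labelled knockout by edgeR's quasi-likelihood test, with a median log2 fold change of 0.41 and a summed level of 5288 to 5414 cpm in the control libraries and 7049 to 7093 in the others. Klf4, a factor of the naive state, was counted in 1911, 1852 and 1859 fragments in the control libraries, against 6588, 6454 and 6908 in those labelled knockout (log2 fold change 1.90), and Nanog rose by 1.13 on the same scale. Of 12 neural markers 8 were tested, and 4 were higher and 3 lower with a median of 0.05, or 3 and 2 of the 6 that reached 10 counts in both groups. Olig2, an oligodendrocyte and motor neuron lineage factor, was counted in 1, 2 and 2 fragments in the control libraries, against 269, 278 and 313 in those labelled knockout, and Olig1 in 6, 9 and 15 against 499, 435 and 497. Nes, an intermediate filament of neural progenitors, moved the other way, with 2700, 2550 and 2649 against 499, 461 and 537 (log2 fold change -2.33). Of 10 endoderm markers 8 were tested, and 2 were higher and 4 lower with a median of -0.41, or 2 and 2 of the 6 that reached 10 counts in both groups with a median of 0.0053, and Sox7 was the largest change among those with a mean of at least 50 counts, with 39, 35 and 27 fragments against 64, 79 and 84 (log2 fold change 1.24). Among the mesoderm markers Eomes was higher (0.40) and Kdr was lower (-0.82).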
